A study of Mus musculus with 9 samples.

Results

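The 32 genes described here are endothelial identity genes, a list of genes whose products mark or build the endothelium, the cell layer that lines blood and lymph vessels. They were taken by name from a fixed list, which was drawn up with earlier results of these data known. All 32 were matched to 1 row each among the 33293 gene identifiers of the table. The study sequenced RNA of the whole aorta in male mice, 7 to 8 weeks old and fed normal chow, with 5 libraries from C57BL/6J mice of wild-type genotype (WT) and 4 libraries from Apoe-knockout mice (Apoe_KO). The sources used here do not give the strain background of the knockout mice or the structure of their Apoe allele. Apoe encodes apolipoprotein E, a carrier of plasma lipid, and its level was 513 to 643 FPKM in WT and 5.64 to 6.55 FPKM in Apoe_KO, so every library followed its label. FPKM is the number of fragments scaled to the length of the gene's exons and to the depth of the library. It does not adjust for differences in RNA composition between libraries. Whether the libraries of a group are separate animals is not stated in the labels, so p-values reflect the spread between these samples, which may be technical.

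Endothelial cells hold to each other through junction proteins such as VE-cadherin and claudin 5, and their fate is set in the embryo and kept in the adult by transcription factors of the ETS and SOX families. The Tie receptors and the angiopoietins control the stability of the vessel, and receptors for sphingosine 1-phosphate and adrenomedullin control its barrier. In the aorta the endothelium is a single layer facing the blood, while small vessels of the wall and of the fat around it hold further endothelial cells, so whole-tissue RNA mixes endothelium of several vessel types. In such bulk samples fewer endothelial cells and less of an RNA per cell cannot be told apart.

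Many endothelial genes carry binding sites for ETS factors, among which Erg and Fli1 are in the list, and promoters are shown as background. Whether such sites bear on the levels in these libraries was not tested. RefSeq promoter windows (build GRCm38.p6) were matched for 14 of the 32 genes, with 19 start sites. The 250 bases before each start were searched on both strands for AGGAAG or CGGAAG, here called the ETS core. They were also searched for ACAATG, here called the SOX core. The ETS core was found in 10 of 19 windows, against 39.2% of 32851 promoter windows of the same length. By gene it was found in 9 of 14, a count without a like background, since some genes had several windows. The SOX core was found in 3 of 19 windows, those of Calcrl, Mmrn1 and Erg, against 10.7% of all windows. A match is a description of letters and no evidence of binding. Shorter forms such as GGAA, which the Clec14a window below holds, were not searched for. Below are the windows of Egfl7 (chr2:26580833-26581082, plus strand, its first start) and Tie1 (chr4:118489850-118490099, minus strand), which held 3 and 2 ETS cores, and those of Clec14a (chr12:58269259-58269508, minus strand) and Cldn5 (chr16:18776597-18776846, plus strand), which held none of these letters. They run 5′ to 3′ on the strand of the gene, ending at the base before the start, and capitals mark the core matches.
Egfl7: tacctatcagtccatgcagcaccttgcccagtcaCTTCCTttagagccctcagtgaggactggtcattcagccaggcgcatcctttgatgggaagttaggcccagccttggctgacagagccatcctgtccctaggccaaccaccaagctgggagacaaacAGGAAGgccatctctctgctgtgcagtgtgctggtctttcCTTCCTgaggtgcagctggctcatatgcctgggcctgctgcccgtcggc
Tie1: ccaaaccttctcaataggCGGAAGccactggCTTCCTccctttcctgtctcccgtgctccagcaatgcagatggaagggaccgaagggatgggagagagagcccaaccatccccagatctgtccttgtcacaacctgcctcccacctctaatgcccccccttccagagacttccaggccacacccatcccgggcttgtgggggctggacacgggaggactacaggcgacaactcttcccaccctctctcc
Clec14a: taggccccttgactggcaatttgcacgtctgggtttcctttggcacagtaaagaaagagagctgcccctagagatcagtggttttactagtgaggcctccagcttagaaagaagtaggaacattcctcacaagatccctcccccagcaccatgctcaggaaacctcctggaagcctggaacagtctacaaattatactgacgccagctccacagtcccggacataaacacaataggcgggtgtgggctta
Cldn5: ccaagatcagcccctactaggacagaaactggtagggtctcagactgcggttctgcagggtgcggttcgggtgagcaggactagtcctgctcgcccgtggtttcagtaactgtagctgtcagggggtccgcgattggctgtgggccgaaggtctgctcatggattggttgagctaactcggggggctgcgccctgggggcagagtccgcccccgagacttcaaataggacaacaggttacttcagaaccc
In Egfl7 the cores began 216, 89 and 49 bases before the start, and in Tie1 232 and 219 bases before it.

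The first question was whether endothelial identity genes differed between the genotypes. All 32 were expressed above the filter of 1 FPKM in at least 4 libraries, and the lowest value of any of them in any library rested on 182 reads. Mean levels over the 9 libraries ran from 98.3 FPKM for Pecam1 through 53.3 for Plvap and 44.2 for Cdh5 down to 4.16 for Sox17, 3.93 for Cyyr1 and 1.67 for Prox1. With limma and a threshold of 0.05 on p-values adjusted over all 13383 tested genes, 1 of the 32 was called lower in Apoe_KO (Palmd) and 0 were called higher. Over all tested genes 3.92% were called lower and 3.43% higher, 7.35% in either direction, so the 32 did not hold more calls than their background share. At an unadjusted p under 0.05 there were 7 lower and 2 higher of the 32, against 16% and 8.59% of all genes. The sign was negative for 27 of the 32 genes, against 63.9% of all tested genes, and their median log2 fold change was -0.20, against -0.07 over all tested genes. On this scale, log2(FPKM + 1), negative values mean lower in Apoe_KO.

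**Figure D1:**
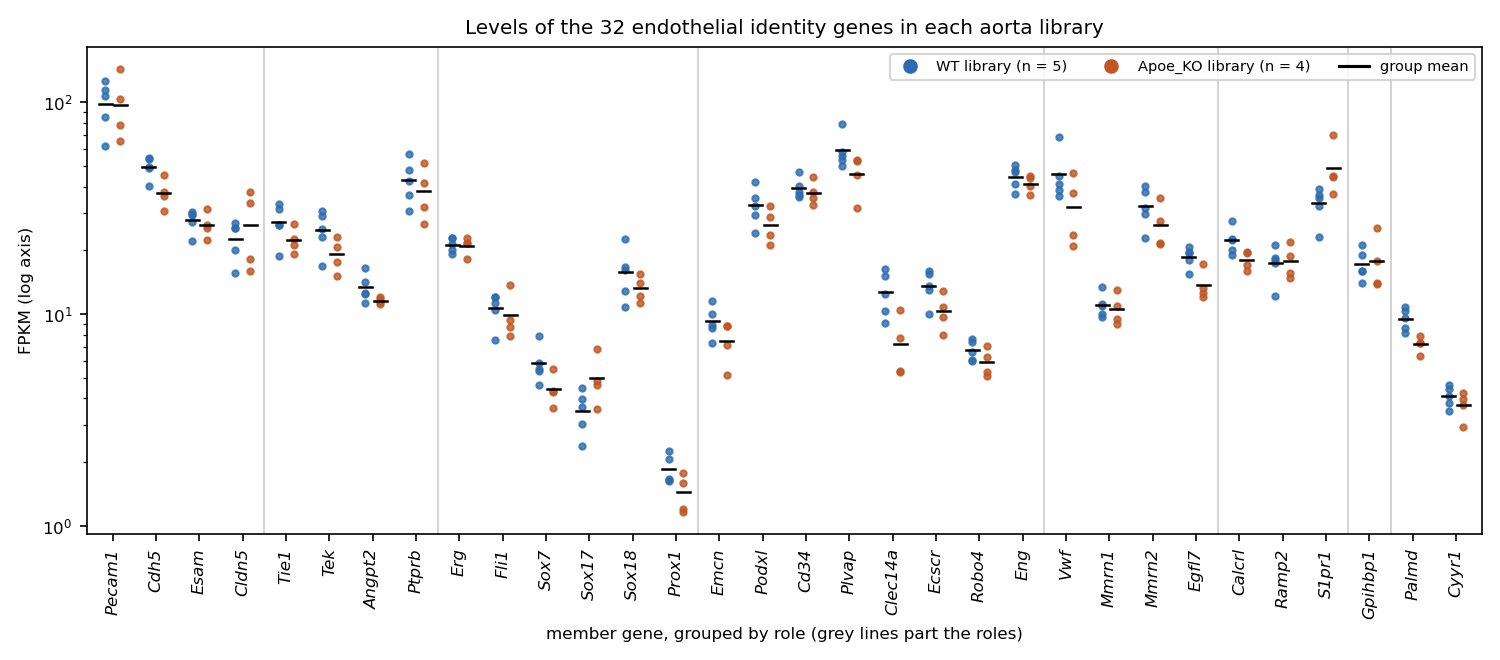
Level of each endothelial identity gene in each library, in FPKM on a log axis, with WT and Apoe_KO libraries as separate points and bars at the group means. The genotypes overlap for every gene except Palmd, whose 4 Apoe_KO points lie below the 5 WT points.

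The intervals show how large a difference these libraries could hide. Of the 31 genes not called, 13 had a 95% interval that stayed within 1.5-fold in both directions on the log2(FPKM + 1) scale. The interval of 15 reached 1.5-fold lower in Apoe_KO on that scale, and that of 3 reached 1.5-fold higher. The scale understates changes of low genes, so an interval within 1.5-fold is less strict for them. For Prox1, the least abundant, the log2 fold change was -0.23 (SE 0.1130) here and -0.36 (SE 0.1722) with a pseudocount of 0.1. Standard errors on the log2 scale ran from 0.0811 for Erg to 0.2674 for Cldn5.

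**Figure D2:**
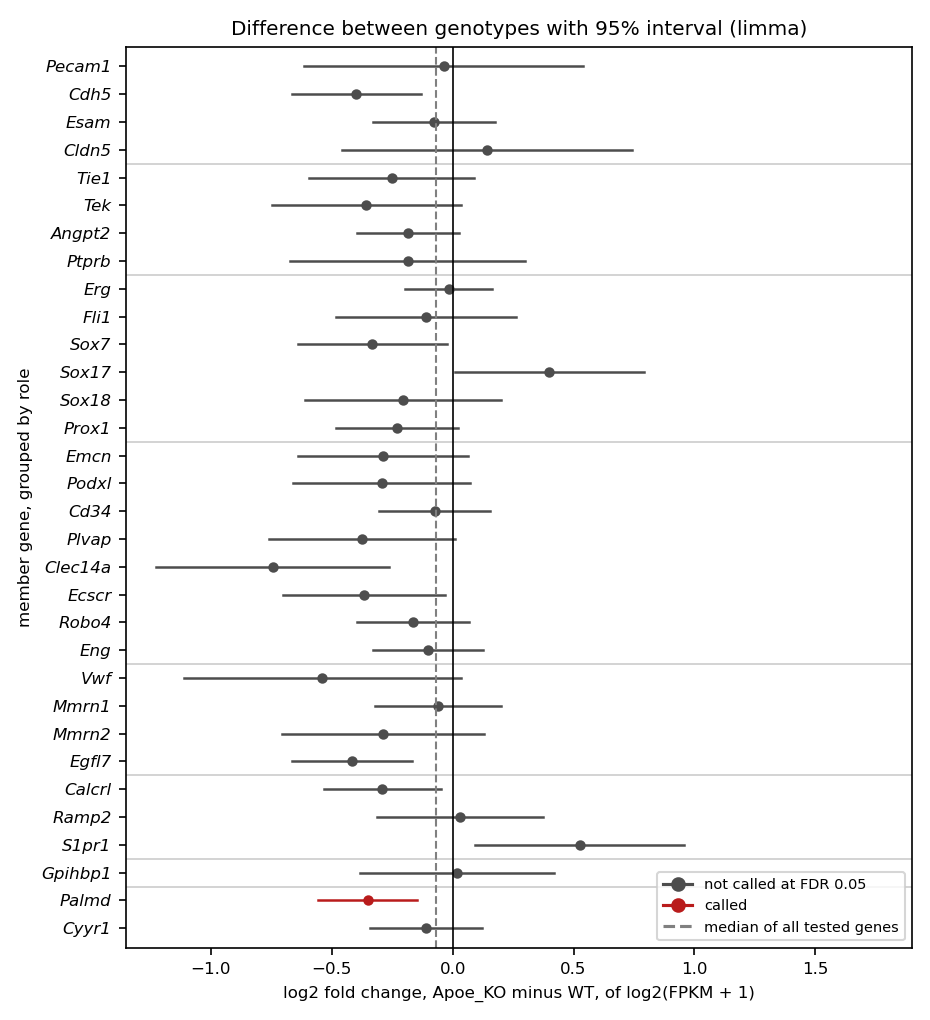
Log2 fold change, Apoe_KO minus WT, of each of the 32 genes, ordered by role, with its 95% interval from limma, and the median of all tested genes as a dashed line. Palmd is the 1 gene called, while Clec14a lies farthest to the left at -0.74 and S1pr1 farthest to the right at 0.53.

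Palmd, which encodes palmdelphin, a cytosolic protein related to paralemmin, was the gene called. It lies on chromosome 3 (116918258 to 116968987, minus strand, GRCm38) and measured 10.3, 8.19, 8.6, 9.56 and 10.8 FPKM in WT 1 to 5 and 7.29, 7.92, 7.3 and 6.34 FPKM in Apoe_KO 1 to 4. Each Apoe_KO library lay below each WT library, a separation that 7.48% of all tested genes showed in this direction and 4.9% in the other (12.4% in all). This gave a log2 fold change of -0.35 (SE 0.0918) at a limma adjusted p of 0.0480. The gap between the highest knockout value and the lowest WT value was small. Without WT 1 the adjusted p was 0.0993, without WT 3 0.054, without WT 4 0.102, without WT 5 0.0992, without Apoe_KO 1 0.0921, without Apoe_KO 3 0.113 and without Apoe_KO 4 0.107. The call held without WT 2 (0.0435) or Apoe_KO 2 (0.0412). With all libraries, it was lost with the replicate block (0.219), no filter (0.12), median centring (0.143) and quantile normalization (0.129). An opposite-strand gene, 4930455H04Rik, shares 333 exonic bases with Palmd, and the sources used here do not say whether the libraries were stranded. Cyyr1, a small cysteine- and tyrosine-rich membrane protein, had a log2 fold change of -0.11 (adjusted p 0.554) at a level of 2.94 to 4.63 FPKM.

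Among the junction and contact proteins, 0 of 4 passed the test. Cdh5, which encodes VE-cadherin, the adhesion protein of endothelial junctions, measured 40.5, 49.6, 54.5, 49.1 and 54.2 FPKM in WT and 30.8, 37.9, 36 and 45.3 FPKM in Apoe_KO. Of the 4 knockout libraries, 3 lay below the whole WT range and Apoe_KO 4 lay inside it. The log2 fold change was -0.40 (95% interval -0.66 to -0.13, limma adjusted p 0.0727), and it passed the threshold without Apoe_KO 4 (adjusted p 0.041) or without WT 1 (0.0491).

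Pecam1, the adhesion molecule CD31, was the most abundant of the 32 and measured 62, 107, 114, 85.5 and 126 FPKM in WT and 78.2, 65.4, 104 and 144 FPKM in Apoe_KO. The ranges overlapped almost completely, and within WT the highest library was 2.03 times the lowest. Its log2 fold change was -0.04, and the 95% interval of -0.62 to 0.54 leaves room for a difference in either direction. Esam, a junctional adhesion molecule, had a log2 fold change of -0.08. Cldn5, claudin 5 of tight junctions, measured 15.6, 20.1, 26.9, 25.6 and 25.5 FPKM in WT and 16, 37.8, 18.3 and 33.6 FPKM in Apoe_KO. Its knockout values formed a low pair and a high pair that lay on either side of most WT values, and the log2 fold change was 0.14 (SE 0.2674).

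The 4 genes of the Tie receptor group all had a negative sign and none passed the test. Tek, the angiopoietin receptor Tie2, measured 16.9, 25.2, 29.2, 23.1 and 30.8 FPKM in WT and 17.6, 15.2, 20.7 and 23.1 FPKM in Apoe_KO (log2 fold change -0.36, limma adjusted p 0.243). Its partner receptor Tie1 had a log2 fold change of -0.25 (adjusted p 0.347), with 18.9 to 33.1 FPKM in WT and 19.3 to 26.8 FPKM in Apoe_KO. Ptprb, the phosphatase VE-PTP that acts on Tek and VE-cadherin, had -0.19. For these 3 receptor genes WT 1 was the lowest WT library and Apoe_KO 4 the highest knockout library.
Angpt2, the angiopoietin that endothelial cells store and release, had a different order. It measured 16.5, 11.3, 12.5, 12.6 and 14.1 FPKM in WT, where WT 1 was the highest, and 11.4, 11.2, 11.8 and 12 FPKM in Apoe_KO (log2 fold change -0.18, adjusted p 0.265).

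Of the 6 transcription factors 0 passed the test. Erg, an ETS factor that maintains endothelial gene expression, had the smallest standard error of the 32, at 19.3, 22.9, 21.4, 20.1 and 22.8 FPKM in WT and 18.2, 21.6, 21.7 and 22.9 FPKM in Apoe_KO. The ranges nearly coincided, and the 95% interval of its log2 fold change was -0.20 to 0.16. Fli1, an ETS factor shared with blood cells, had -0.11.
The 3 SOX factors of the F group, which act together in arterial and lymphatic development, did not share a sign. Sox17 measured 2.38, 4.49, 3.98, 3.04 and 3.65 FPKM in WT and 3.58, 4.82, 4.65 and 6.85 FPKM in Apoe_KO, with 3 of 4 knockout libraries above the WT range (log2 fold change 0.40, 95% interval 0.01 to 0.79, limma adjusted p 0.192). Sox7 measured 4.62 to 7.85 FPKM in WT and 4.35, 5.49, 3.6 and 4.28 FPKM in Apoe_KO, with 3 of 4 below the WT range (-0.33, adjusted p 0.173). Sox18 had a log2 fold change of -0.21 (adjusted p 0.525). The opposite signs of Sox17 and Sox7 are those of genes that did not pass, and the difference between the genes was not tested. Part of the Sox17 exons (804 bases) overlaps Gm37587 on the opposite strand.
Prox1, the factor that sets lymphatic identity, was the least abundant, at 1.63, 2.08, 1.66, 1.68 and 2.25 FPKM in WT and 1.21, 1.17, 1.6 and 1.78 FPKM in Apoe_KO (-0.23, adjusted p 0.240).

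The 8 surface glycoproteins and receptors all had a negative sign and 0 passed. Clec14a, a C-type lectin of the endothelial surface that binds Mmrn2, is a gene of 1 exon on chromosome 12 (58264720 to 58269290, minus strand, GRCm38). It measured 9.04, 15.2, 12.4, 10.4 and 16.4 FPKM in WT and 5.36, 5.42, 7.74 and 10.4 FPKM in Apoe_KO. The knockout libraries 1 to 3 lay below all WT libraries, while Apoe_KO 4 lay among the lower WT values. Its log2 fold change of -0.74 (SE 0.2143, 95% interval -1.22 to -0.26) was the lowest of the 32, with a limma adjusted p of 0.0669, and without Apoe_KO 4 it was -0.92 (adjusted p 0.0346).
Plvap, which forms the diaphragms of fenestrae and caveolae, measured 50 to 79.3 FPKM in WT and 31.8 to 53.6 FPKM in Apoe_KO (-0.37, adjusted p 0.215). Ecscr, a regulator of endothelial migration whose exons overlap those of 1700066B19Rik, had -0.37 (adjusted p 0.166). The sialomucins Emcn and Podxl both had -0.29, and Cd34, the sialomucin also found on progenitor cells and fibroblasts, had -0.07. Robo4, a receptor that stabilises the vessel barrier, had -0.16, and Eng, the TGF-beta co-receptor endoglin, had -0.10.

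The 4 secreted and matrix proteins also had a negative sign throughout, with 0 passing. Egfl7, a secreted protein of the endothelial matrix, measured 15.5, 19.6, 19.4, 18 and 20.7 FPKM in WT and 12, 12.6, 13.3 and 17.2 FPKM in Apoe_KO. Again 3 of 4 knockout libraries lay below the WT range, and Apoe_KO 4 did not. The log2 fold change was -0.42 with a limma adjusted p of 0.0527, the lowest among the genes not called, and it passed without Apoe_KO 4 (0.02), without WT 1 (0.0404) and in the fit on reads recovered from the FPKM values (0.0452). Its exons share 459 bases with Agpat2, Gm20532, Mir126a and Mir126b.
Vwf, von Willebrand factor, which captures platelets and is stored in endothelial granules, measured 36.3, 41.3, 45.1, 38.6 and 68.5 FPKM in WT and 23.7, 21, 37.3 and 46.2 FPKM in Apoe_KO. WT 5 stood above the other WT libraries, and the knockout libraries split into a low and a high pair (-0.54, adjusted p 0.228). Mmrn2, a matrix protein bound by Clec14a, had -0.29 and its relative Mmrn1 had -0.06.

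The G protein-coupled receptor group held both signs, and 0 of 3 genes passed. S1pr1, the receptor for sphingosine 1-phosphate that tightens the endothelial barrier and that lymphocytes use to leave lymphoid organs, lies on chromosome 3 (115710433 to 115715072, minus strand, GRCm38). It measured 23.3, 36.6, 35.5, 32.6 and 39.1 FPKM in WT and 37.1, 44.5, 45.1 and 70.1 FPKM in Apoe_KO. It had the most positive log2 fold change of the 32, 0.53 (95% interval 0.09 to 0.96, limma adjusted p 0.130), with 3 of 4 knockout libraries above the WT range, and it was 0.34 without Apoe_KO 4 (adjusted p 0.231).
Calcrl, the adrenomedullin receptor, had a log2 fold change of -0.29 (adjusted p 0.134), and Ramp2, the protein it needs at the cell surface, had 0.03 (adjusted p 0.926). Ramp2 shares exonic bases with Vps25 on the same strand, which the counting could have split. Gpihbp1, which anchors lipoprotein lipase on capillary endothelium, measured 14.1, 16, 21.2, 19 and 15.9 FPKM in WT and 13.9, 25.6, 14 and 17.8 FPKM in Apoe_KO. Apoe_KO 2 was highest and 2 knockout libraries lay just under the lowest WT value, so no direction was visible (0.02, adjusted p 0.959).

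Within each genotype, the same libraries were low or high for most of the genes. WT 1 was the lowest WT library for 28 of the 32 genes, and for the other 4 (Angpt2, Mmrn1, Palmd and Robo4) it was WT 2. WT 5 was the highest WT library for 21 genes. Within Apoe_KO, library 4 was the highest for 25 genes and library 1 the lowest for 17. For 23 genes WT 1 was lowest and Apoe_KO 4 highest in their groups. The mean of log2(FPKM + 1) over the 32 genes, less its WT mean, was -0.30, 0.00, 0.12, -0.03 and 0.21 in WT 1 to 5 and -0.39, -0.22, -0.20 and 0.08 in Apoe_KO 1 to 4. Apoe_KO 1 to 3 thus lay between the 2 lowest WT libraries or below them, and Apoe_KO 4 among the higher ones. The 32 genes are measured in the same libraries, so this repeated order is not 32 separate observations. Leaving out WT 1 moved the median log2 fold change from -0.20 to -0.28, and leaving out Apoe_KO 4 moved it to -0.29. Without WT 1, 2 genes were called lower (Cdh5 and Egfl7), and without Apoe_KO 4, 3 were (Cdh5, Clec14a and Egfl7). The share of all tested genes called in each of these fits was not taken, so these counts have no background.

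**Figure D3:**
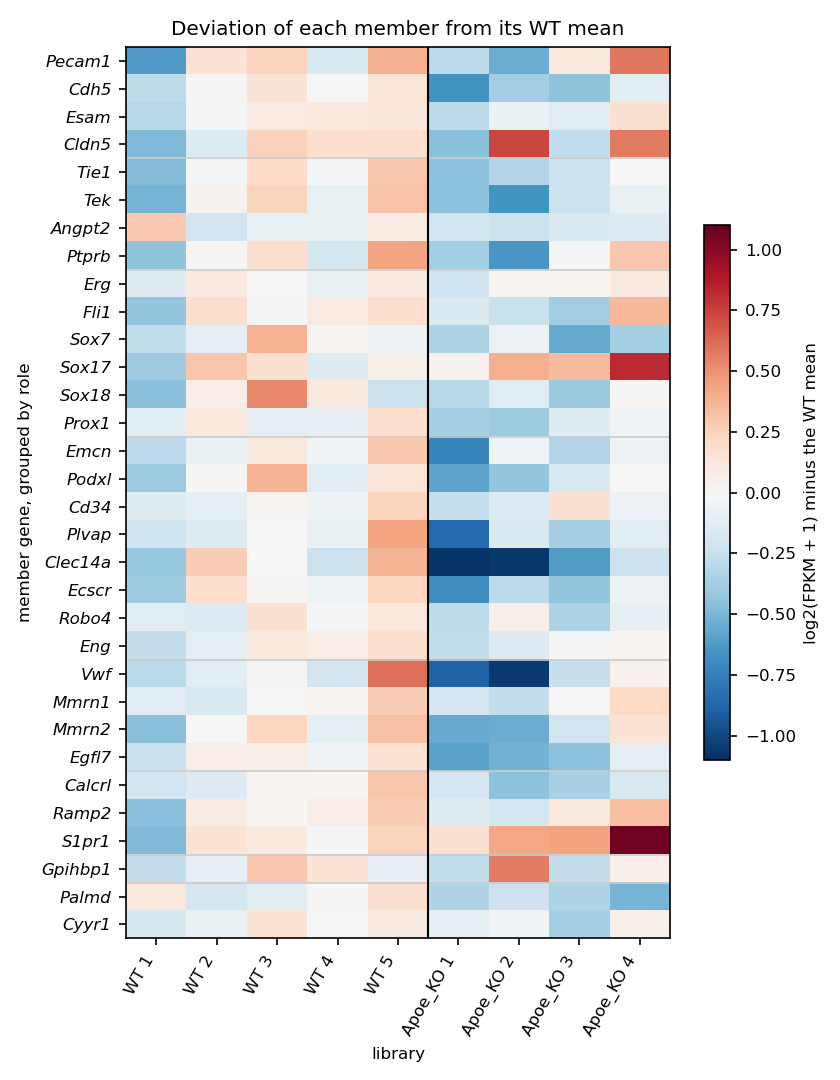
Log2(FPKM + 1) of each gene in each library, less the WT mean of that gene, as a colour scale, with genes by role and libraries by genotype. The WT 1 column is low and the Apoe_KO 4 column high within their genotypes for most genes, and S1pr1 and Sox17 lie above their WT mean in all 4 Apoe_KO libraries.

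Markers of other cells also moved between libraries, and their part in these results was not tested. The 9 white adipocyte genes had a list mean, less that of WT, of -1.02, -0.18, -0.87 and -0.47 in Apoe_KO 1 to 4, and -0.19, -0.06, 0.10, 0.32 and -0.18 in WT, with a summed level of 3683 to 5674 FPKM in WT and 2372 to 4498 FPKM in Apoe_KO, and 3 of 9 were called lower. The 10 capillary endothelial genes, several of which adipocytes also express, summed to 1113 to 1563 FPKM in WT and 979 to 1483 FPKM in Apoe_KO. Brown adipocyte genes were highest in Apoe_KO 2 and WT 3, at 0.55 and 0.56 above the WT mean, and Apoe_KO 2 was also the highest knockout library for Cldn5, Gpihbp1, Emcn, Robo4, Sox7 and Palmd. WT 1, the low library, had the lowest mean of 10 immediate early genes, at -0.93, and WT 5, the high library, the highest, at 0.88. Heat shock genes were higher in all Apoe_KO libraries by 1.02 to 1.52 in list mean, with 8 of 10 called.
WT 2 and Apoe_KO 4 stood apart in lymphoid genes. The 8 B and plasma cell genes summed to 503 and 414 FPKM there, against 15.6 to 40.6 FPKM elsewhere. The 9 T and NK cell genes summed to 76.6 and 63.2 FPKM, against 4.66 to 15.7 FPKM elsewhere, and none of them was at 0 in any library. Genes of high endothelial venules and lymph node stroma summed to 53.9 and 66.6 FPKM, against 4.59 to 10.7 FPKM elsewhere, and 3 of them were at 0 in some library. Without both libraries, 1 of the 32 genes was called lower (Egfl7, limma adjusted p 0.0451), a count again without a background share. In that fit Palmd had an adjusted p of 0.0769, and S1pr1 a log2 fold change of 0.38.

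Because the same libraries were low or high for most genes, the levels were also taken relative to other endothelial genes, a comparison added after the data were seen. The mean of log2(FPKM + 1) over 28 further pan-endothelial genes, none among the 32, was subtracted in each library, and the same limma fit was run on all genes. That mean was 0.14 lower in Apoe_KO than in WT, so every relative log2 fold change is raised by that amount. In this fit 1 of the 32 genes was called higher (S1pr1) and 1 lower (Clec14a), where the background was 2.27% called higher and 0.321% called lower (2.59% in all). On the absolute scale these shares were 3.43% and 3.92%. Subtracting an endothelial mean takes out library variation that endothelial genes share and adds it to genes that do not share it. The background share is therefore not on equal terms with the 32.

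S1pr1 relative to the other endothelial genes was at 1.47, 1.80, 1.66, 1.65 and 1.74 in WT and at 2.14, 2.27, 2.28 and 2.64 in Apoe_KO, on the log2 scale. Every Apoe_KO library lay above every WT library. The relative log2 fold change was 0.67 (SE 0.1443, limma adjusted p 0.0104). It passed under each of the 14 settings tried, from 0.56 to 0.73, and was 0.60 without both WT 2 and Apoe_KO 4 (adjusted p 0.0248). These settings were the main fit, a replicate block, a pseudocount of 0.1, the mean of the 32 as reference, and leaving out libraries. The relative fit was not run with no filter, quantile normalization or voom.
Clec14a was at 0.20, 0.59, 0.21, 0.09 and 0.53 in WT and at -0.44, -0.55, -0.12 and 0.01 in Apoe_KO, again with no overlap. Its relative log2 fold change was -0.60 (adjusted p 0.0486), and it passed in 4 of the 14 settings, with adjusted p from 0.0112 to 0.178. Without Apoe_KO 1 the adjusted p was 0.162, and in the fit with replicate numbers as a block it was 0.178.
Sox17 relative to the other genes was at -1.37, -0.97, -1.21, -1.41 and -1.37 in WT and at -0.92, -0.69, -0.75 and -0.53 in Apoe_KO. The groups did not overlap, but the gene did not pass (0.54, adjusted p 0.0807), and it passed in 0 of 14 settings.
Outside the 32, Gja4, an arterial gap junction gene chosen after its values were seen, was called higher on the relative scale (0.71, adjusted p 0.0234), though Apoe_KO 2 lay inside the WT range. It was not called with the replicate block (adjusted p 0.132) or without WT 3 (0.0524), WT 5 (0.0589), Apoe_KO 1 (0.0524) or Apoe_KO 3 (0.156). On the absolute scale 0 of the 11 arterial genes, Gja4 among them, were called higher and 3 were called lower. Of these 11 genes, 10 had a negative sign.

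The SD within groups was smaller on the relative than on the absolute scale for 29 of the 32 genes and larger for 3. These were Angpt2 (0.147 absolute, 0.264 relative), Palmd (0.138 and 0.258) and Sox7 (0.226 and 0.227). The moderated standard error of limma was smaller in the relative fit for 18 genes and larger for 14. Cdh5 was at 2.25, 2.23, 2.26, 2.23 and 2.20 in WT and at 1.88, 2.04, 1.96 and 2.03 in Apoe_KO, with no overlap, at a relative log2 fold change of -0.26 (adjusted p 0.446). Its SD within groups was 0.0524 on the relative scale against 0.195 on the absolute one, while its standard error was 0.1304 against 0.1193. The limma fit draws each standard error towards the spread of all tested genes of similar level. Relative standard errors and adjusted p-values of the 32 thus also depend on genes that are not endothelial. A gene that did not pass on this scale is therefore not shown to be unchanged. Egfl7 and Ecscr had -0.27 and -0.22 and did not overlap or pass either. In all, 4 of the 32 genes had relative levels lower in every Apoe_KO library (0.74% of all tested genes did) and 2 higher (4.11%). These shares, 7.48% and 4.9% on the absolute scale, are likewise not on equal terms with the 32, since the reference is endothelial. Palmd, called on the absolute scale, overlapped on the relative one (-0.21, adjusted p 0.724).

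**Figure D4:**
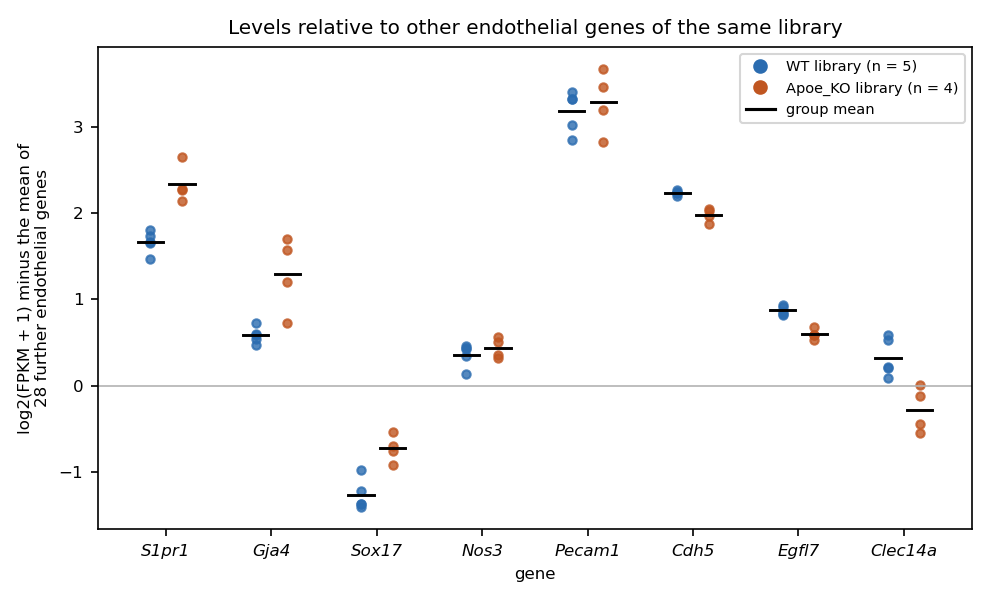
Level of selected genes in each library relative to the mean of 28 further pan-endothelial genes, on the log2 scale, WT and Apoe_KO as separate points with bars at the group means, and Gja4 and Nos3 as endothelial genes outside the 32. S1pr1 is higher in all 4 Apoe_KO libraries (2.14 to 2.64 against 1.47 to 1.80), and Clec14a is lower (-0.55 to 0.01 against 0.09 to 0.59).

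Several other endothelial genes, from lists set beside the 32, were called lower, and whether these lists differ from the 32 was not tested. Of the 28 further pan-endothelial genes, 6 were called lower and 0 higher, against 3.92% and 3.43% of all tested genes, with a median log2 fold change of -0.12, against -0.07. Myct1, an endothelial membrane protein, fell from 8.75 ± 1.58 FPKM (SD, n = 5) to 4 ± 0.472 FPKM (SD, n = 4), a log2 fold change of -0.95 (limma adjusted p 0.0031). The exchange factor Arhgef15 (-0.46, adjusted p 0.0142) and Kdr, the main VEGF receptor (-0.58, adjusted p 0.0184), were also lower. Because 6 of the 28 reference genes were themselves called lower, the relative values above are measured against a group that is not constant.

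The background for the counts of vessel-type genes was again 3.92% called lower and 3.43% called higher. Of 11 arterial genes 3 were called lower, namely the Notch ligands Jag1 (-0.65, adjusted p 0.013) and Dll4 (-0.53, adjusted p 0.0156) and endothelin 1, Edn1 (-0.70, adjusted p 0.0464). Of 5 venous genes 2 were called lower, the apelin receptor Aplnr, from 6.68 ± 0.86 FPKM (SD, n = 5) to 1.7 ± 0.418 FPKM (SD, n = 4), and the venous factor Nr2f2 (-0.62, adjusted p 0.0073). Of 10 capillary genes 1 was called lower, the homeobox gene Meox2 (-0.75, adjusted p 0.0135). Of the 7 lymphatic genes tested, 1 was called higher, the hyaluronan receptor Lyve1 (0.81, adjusted p 0.0196), which macrophages also express. The list medians were -0.23 for arterial, -0.36 for venous, -0.19 for capillary and 0.10 for lymphatic genes, against -0.20 for the 32 identity genes. Of 10 genes of smooth muscle, the main cell type of the wall, 1 was called higher and 0 lower. Their median was 0.20, and 1 of the 10 had a negative sign. Their list mean, less that of WT, was 0.46, 0.12, 0.29 and -0.03 in Apoe_KO 1 to 4. Of 8 fibroblast genes 0 were called in either direction, with a median of 0.11 and 2 negative. Of 12 macrophage genes 1 was called higher and 0 lower, with a median of 0.20 and 1 negative. What part these shifts had in the endothelial values was not tested.

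**Figure D5:**
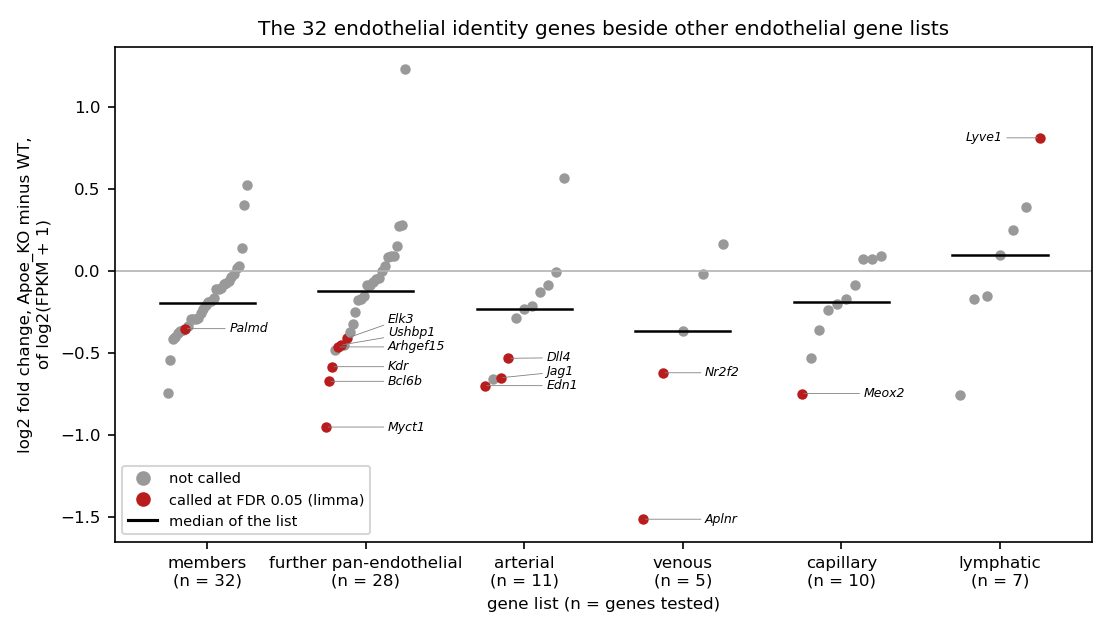
Log2 fold change, Apoe_KO minus WT, of each tested gene in the list of 32 and in the lists of further pan-endothelial, arterial, venous, capillary and lymphatic genes, with the median of each list as a bar and called genes in red. The called genes of the pan-endothelial, arterial, venous and capillary lists are all lower in Apoe_KO, and Lyve1 is the 1 called higher.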

How the data were processed

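The data are 9 RNA-seq libraries of mouse aorta, 5 from WT and 4 from Apoe_KO mice. Per the labels' protocols, ribosomal RNA was removed from total RNA, while their molecule field names polyA RNA. Per the submitters' processing notes, the build was GRCm38 and limma was used. For the aligner, counter, annotation and strandedness, the name or setting was not given in the sources used here.

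A single table of 33293 identifiers was deposited, in a unit taken to be FPKM from its values, since the header names none. Each deposited FPKM value times the exonic length of the gene in GENCODE mouse release M21 gave whole reads within 0.1 read for 95.2% to 95.5% of values. Depths were 17.0 to 19.8 M reads or fragments per library. Identifiers missing from that annotation numbered 53. No 2 columns were identical.

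Tests were run on log2(FPKM + 1) for the 13383 genes that reached 1 FPKM in 4 or more libraries, using limma 3.58.1 (trend and robust) in R 4.3.3, with genotype as the only term and Benjamini-Hochberg adjustment at 0.05. The scale understates changes of low genes. The main fit was tested on simulated reads, drawn independently for each gene and with the same scatter setting for all genes. That setting was not fitted to these libraries, so the test does not show how often a change in the 32 would be called. Variation shared between genes, the relative fit and the alternatives below were not simulated. Alternatives were a replicate block, a pseudocount of 0.1, no filter, median centring, quantile normalization, voom on recovered reads and leaving out libraries. The relative fit was chosen after seeing the data. The 32 genes and all other lists were chosen with earlier results of these data known. All 32 are accounted for, and of each other endothelial list up to 3 called genes of smallest p are named.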

Additional observations from a re-analysis of the deposited data

Results flagged for a closer look

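On the log2(FPKM + 1) scale, none of the 32 endothelial identity genes had a library far from the others of its group by the 95% critical value of Dixon's ratio, the gap to the nearest library divided by the range of the group. On the FPKM scale 2 of them did, both in WT 5, namely Vwf with a ratio of 0.727 and Plvap with 0.714. Among 104 groups of values examined on the log2 scale, 6 did, where chance alone would give about 1 in 20, and all 6 were lymphoid or lymph node lists in WT 2 or Apoe_KO 4. The T and NK cell list mean had a ratio of 0.732 in WT 2 and 0.897 in Apoe_KO 4. The B and plasma cell list mean had a ratio of 0.866 in WT 2 and 0.922 in Apoe_KO 4. The list mean of high endothelial venule and lymph node stroma genes had a ratio of 0.850 in WT 2 and 0.928 in Apoe_KO 4.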

How the results depend on the processing

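No identity gene was called higher under any of the 16 alternatives. The number called lower was 1 with a pseudocount of 0.1 and 0 with the replicate block, no filter, median centring or quantile normalization. It was 2 with voom on the recovered reads (Palmd and Egfl7), from 0 to 3 when 1 library was left out, and 1 without both WT 2 and Apoe_KO 4. The share of all tested genes called under each alternative was not taken, so these counts have no background. The median log2 fold change stayed negative, from -0.29 to -0.13. The deviations of same-numbered libraries correlated at 0.26, -0.27, -0.13 and -0.22. They were not compared with those of other library pairs, so whether replicate numbers pair the samples is not settled. In the block WT 5 has no partner and no weight. Signs turned for 6 genes that were never called. With the block Pecam1 was 0.0593, Erg 0.0073, Mmrn1 0.0083 and Gpihbp1 -0.0036, and with median centring Pecam1 was 0.0304, Erg 0.0509 and Mmrn1 0.0090. Leaving out 1 library gave -0.24 to 0.13 for Pecam1, -0.0541 to 0.34 for Cldn5, -0.0563 to 0.05 for Erg, -0.15 to 0.0094 for Mmrn1, -0.0853 to 0.10 for Ramp2 and -0.16 to 0.12 for Gpihbp1. Without both WT 2 and Apoe_KO 4, Cldn5 was -0.0357, Ramp2 -0.0486, Gpihbp1 -0.0166 and Mmrn1 -0.19. The fits hold 4 or 5 libraries a group, and intervals as wide as that of Cldn5 leave differences of 1.5-fold undetectable.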
